A study of Mus musculus with 6 samples.

Results

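The 33 genes described here encode the folding machinery of the endoplasmic reticulum (ER) and the unfolded protein response, the signalling that adjusts this machinery to its load. They were chosen by name, as chaperones, lectins, disulfide isomerases, stress sensors and their transcription factors, stress-induced genes, degradation factors and translocon components. All 33 symbols were found among the 21988 gene symbols of the expression table. RNA was measured by sequencing in C57BL/6 mouse embryonic fibroblasts (MEFs), cells taken from mid-gestation embryos and serially passaged in serum-containing medium. The groups are cells at population doubling 2, 8 and 14 (PD2, PD8 and PD14), that is, after that many cumulative doublings since the primary culture. Each group had 2 libraries: replicate 1 was a strand-specific library depleted of ribosomal RNA and replicate 2 was enriched for poly(A) RNA. The labels name no mutation and no treatment in any group, so passage is the only labelled difference between groups, and they do not say how many embryos or cultures were used.

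Secreted and membrane proteins enter the ER through the Sec61 channel and are folded there by BiP, GRP94, the lectins calnexin and calreticulin and the protein disulfide isomerases. When unfolded proteins build up, the sensors IRE1, PERK and ATF6 respond: IRE1 splices the XBP1 messenger, ATF6 is cut to release a transcription factor, and PERK phosphorylates eIF2alpha. The PERK branch lowers general translation while allowing translation of ATF4, which induces amino acid synthesis genes and feedback regulators. Other kinases that sense amino acid lack or viral RNA feed into the same ATF4 branch, called the integrated stress response. Fibroblasts secrete large amounts of collagen, which depends on this folding machinery.

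The values are TPM, a transcript abundance that is corrected for transcript length and scaled within each library. They give no read numbers, so the depth of a library and the counting error of a value are unknown. Groups were compared on log2(TPM + 1) with limma, a linear model across all genes, for genes that reached 1 TPM in 2 libraries, and a gene passed at an adjusted p under 0.05. All 10 fibroblast markers were above that filter, with Col1a1 at 3068 to 7460 TPM. Of the fibroblast markers only Twist1 passed the test between PD14 and PD2, and it rose. Among markers of other cell types, 3 of 4 tested muscle, 2 of 4 tested epithelial and 1 of 4 tested endothelial genes fell. None rose, and 4.77% of all genes tested were called lower. Actc1, Myh3, Krt8 and Krt18 reached 1 TPM only at PD2. They passed the filter through the group where they were high, so only a fall could be seen. Summed TPM of the 9 muscle markers were 4.34 and 10.5 at PD14, against 17.0 and 60.4 at PD2 (rRNA-depleted and poly(A) library), and those of the 10 epithelial markers were 6.19 and 2.75, against 23.3 and 42.9. The 9 endothelial markers summed to 17.2 and 5.35 at PD14 and to 24.3 and 15.9 at PD2. The sums of the 15 macrophage and leukocyte markers, mostly Lyz2, went opposite ways in the library methods. They were 39.1 and 684 TPM at PD14 and 165 and 426 TPM at PD2, with Lyz2 at 21.7 and 569 TPM and at 98.5 and 337 TPM. Of 13 tested markers 12 had a negative and 1 a positive fitted change, and 0 passed. Their median log2 change was -1.19 with rRNA depletion and 0.16 with poly(A) enrichment. The 9 chondrocyte and osteoblast markers summed to 698 and 21.4 TPM at PD14 and to 181 and 20.8 TPM at PD2, and the 9 plasma cell and B cell markers, mostly Sdc1, to 135 and 386 and to 131 and 115 TPM. At PD8 the sums were 10.2 and 25.4 TPM for muscle, 11.6 and 8.62 TPM for epithelial and 16.4 and 10.4 TPM for endothelial markers. They were 28.7 and 728 TPM for macrophage and leukocyte, 461 and 25.2 TPM for chondrocyte and osteoblast and 145 and 298 TPM for plasma and B cell markers. Cd3e, Mzb1, Tnfrsf17, Ms4a1, Esrp1, Tie1, Cldn5 and Myf5 were at 0 in every library, and Epcam, Pecam1 and Myod1 stayed below 1 TPM. Whether these other cells had a part in the results below was not tested. In bulk RNA, fewer cells of a type cannot be told apart from less RNA per cell.

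The folding machinery was among the abundant messages of these fibroblasts. The 33 genes together held 0.975%, 0.806% and 0.815% of all TPM with rRNA depletion and 1.07%, 1.04% and 0.973% with poly(A) enrichment (PD2, PD8, PD14). The lectin chaperone gene Calr, the GRP94 gene Hsp90b1 and the disulfide isomerase genes Pdia3 and P4hb averaged over 1000 TPM across the 6 libraries (1520, 1162, 1091 and 1033 TPM) and made up 50.3% to 54.9% of the summed level. Canx, Hspa5, Pdia6, Atf4 and Pdia4 followed at means of 641 to 396 TPM. Another 23 genes had means between 15.0 and 273 TPM, with the sensor gene Ern1 the lowest of them. Derl3, a relative of the ER degradation factors Derl1 and Derl2, was at 0 to 0.552 TPM and was the only one of the 33 below the filter of 1 TPM in 2 libraries. The other 32 genes were tested. The order is loose: the ranges of the 6 libraries overlapped in 30 of the 32 neighbouring pairs, and the exceptions were P4hb over Canx and Ern1 over Derl3. Levels differed between the libraries of the 2 methods. With rRNA depletion 23 members were lower and 10 higher than with poly(A) enrichment, by a median of -0.22 on the log2(TPM + 1) scale. Method coincides with replicate number, so the method and other differences between replicates cannot be told apart. The deposited TPM also sum to less in the rRNA-depleted libraries.

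**Figure D1:**
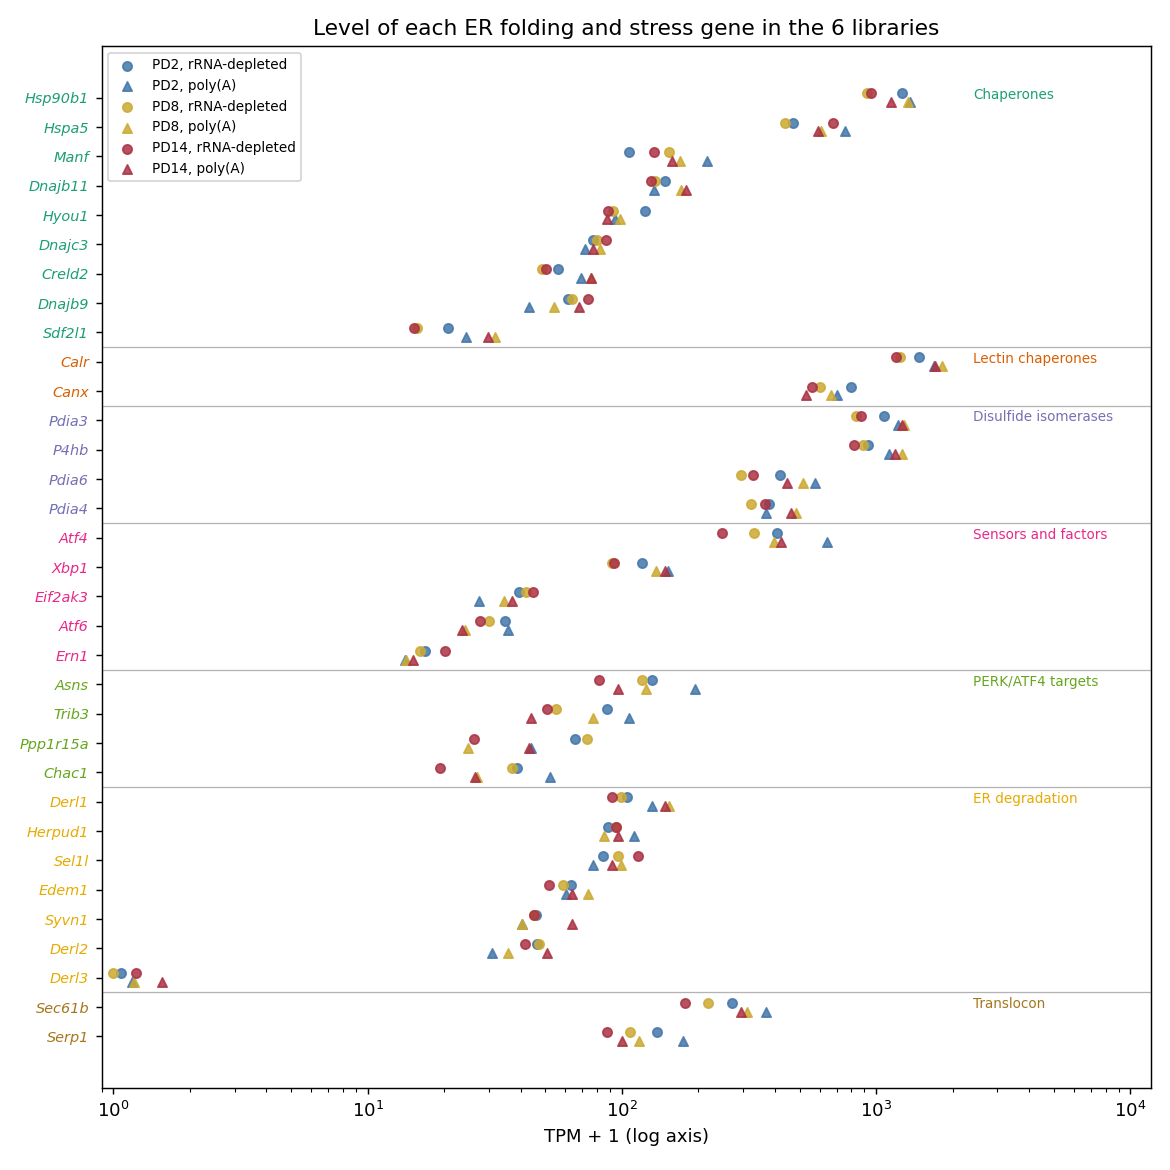
TPM + 1 of the 33 genes (log axis) in each of the 6 libraries, grouped by role and ordered by mean level. Colour gives the population doubling and shape the library method. Calr, Hsp90b1, Pdia3 and P4hb lie near or above 1000 TPM, and Derl3 lies near 0.

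Between PD14 and PD2, 3 of the 32 tested genes fell and 0 rose in limma at an adjusted p under 0.05: the ATF4-induced genes Trib3 and Asns and the translocon gene Serp1. That is 9.38% of the members, against 11.2% of all 13332 genes tested, and the 3 lower calls stand against 4.77% of all genes called lower and 6.41% called higher. The share of members that changed was therefore near the background. Across all genes 854 were called higher and 636 lower, and under quantile normalization 740 and 837, with the same 3 members called. The median change of the members was -0.09 on the log2 scale, beside 0.06 for all genes tested. By method it was -0.29 with rRNA depletion and -0.0031 with poly(A) enrichment. Of the 32 genes, 18 had the same sign in both methods (56.2%, against 69.6% of all genes tested). Both PD14 libraries lay below both PD2 libraries for 9 members (28.1%, against 15.8% of all genes), and above them for 2 members, Sel1l and Dnajb9 (6.25%, against 22.4%). With 2 libraries a group, 0 members passed when the PD2 library made by poly(A) enrichment or any 1 library of PD8 or PD14 was left out, or when the term for library method, the filter on low TPM or the mean-variance trend was dropped. With the term for library method, the p-values rest on how far the changes between groups disagreed between the methods, moderated by the spread of other genes. The labels do not say whether libraries came from separate cultures. That disagreement may thus be technical, and the p-values speak only for these 6 samples.

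**Figure D2:**
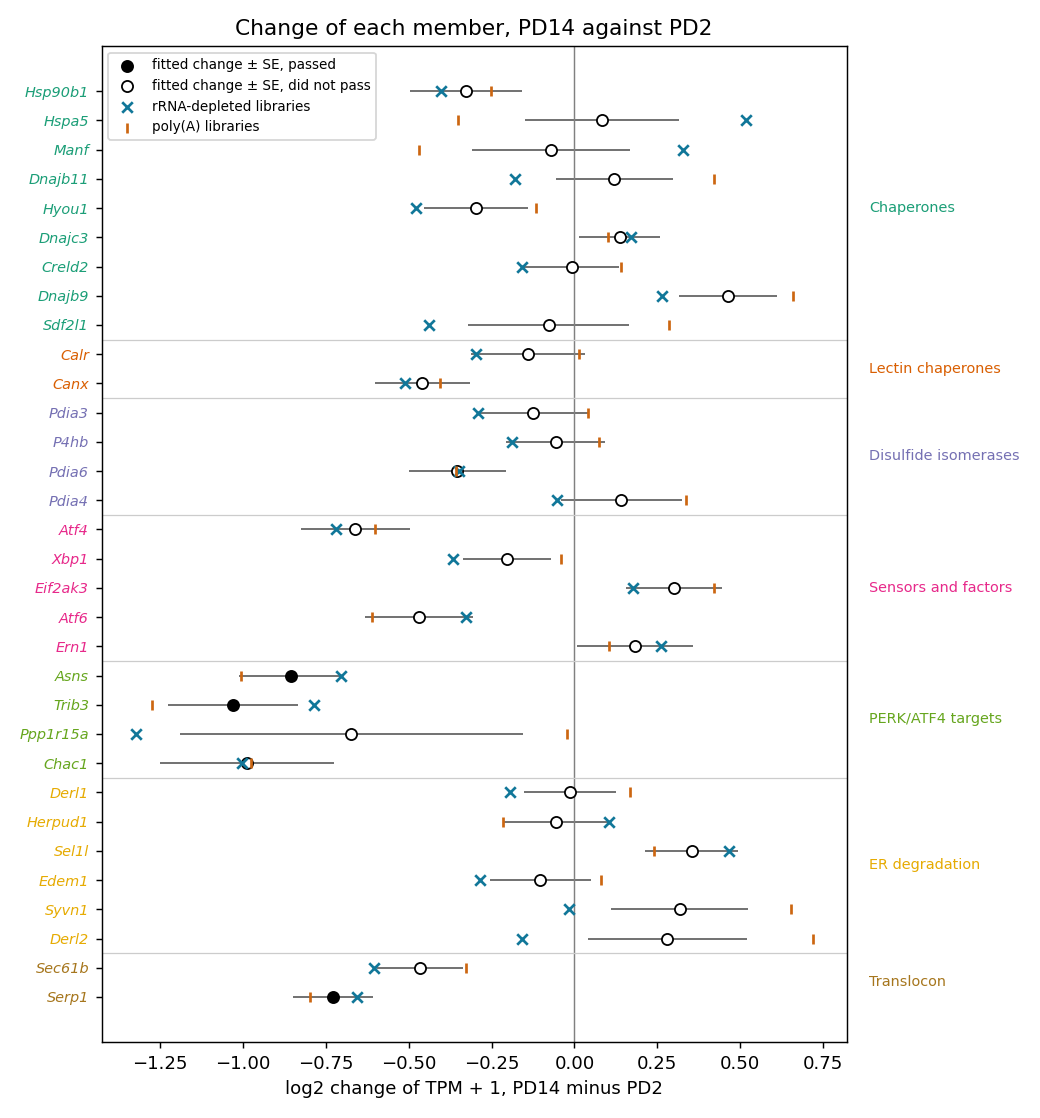
Change of each of the 32 tested genes on the log2(TPM + 1) scale, PD14 minus PD2. Circles with bars are fitted changes ± SE (filled where adjusted p is under 0.05), and crosses and ticks are the change within rRNA-depleted and within poly(A) libraries. Trib3, Asns and Serp1 are filled, and the chaperone genes lie on either side of 0.

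Of the 4 targets of the PERK and ATF4 branch 2 fell and 0 rose between PD14 and PD2 (50% lower, against 4.77% of all genes). The members were chosen with earlier results of these data known. Trib3, Chac1 and Asns had the 3 largest negative values among the members. Trib3 encodes a pseudokinase that is induced by ATF4 and restrains it in turn (chromosome 2, 152337422 to 152344032, minus strand, mm10). It was at 86.7, 54.0 and 49.9 TPM with rRNA depletion and at 105, 76.2 and 42.9 TPM with poly(A) enrichment (PD2, PD8, PD14). Both PD14 libraries were lower than both PD2 libraries, and the fitted change was -1.03 ± 0.20 (SE of the log2 change, n = 2 libraries per group; limma adjusted p = 0.0385), or 0.490 times the level of PD2. Asns, asparagine synthetase (chromosome 6, 7675169 to 7693254, minus strand), was at 131, 119 and 80.1 TPM and at 193, 124 and 95.7 TPM. Its groups did not overlap either, and it fell by 0.86 ± 0.16 (adjusted p = 0.0364). Chac1, which breaks down glutathione, was at 37.6, 35.8 and 18.3 TPM and at 51.1, 26.1 and 25.5 TPM. The level of Chac1 at PD14 was 0.486 and 0.499 times that at PD2 in the library methods, but it did not pass (-0.99 ± 0.26, adjusted p = 0.0722). Ppp1r15a encodes GADD34, which directs a phosphatase to eIF2alpha and ends the translational block. It was at 64.4, 72.3 and 25.1 TPM and at 42.9, 23.8 and 42.2 TPM. The methods gave different courses, with -1.32 between PD14 and PD2 under rRNA depletion and -0.02 under poly(A) enrichment (fitted -0.67 ± 0.52, adjusted p = 0.415).

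None of the 5 sensors and transcription factors passed in limma between PD14 and PD2, and Atf4 and Atf6 had an unadjusted p under 0.05 (40.0%, against 32.0% of all genes tested). Atf4 messenger was at 405, 330 and 246 TPM with rRNA depletion and at 638, 397 and 421 TPM with poly(A) enrichment (PD2, PD8, PD14). Within each method Atf4 was lower at PD14, by -0.72 and -0.60, but the fitted change of -0.66 ± 0.16 did not pass (adjusted p = 0.0627). ATF4 is controlled largely by translation, which these data do not measure. Atf6, the sensor released by proteolysis, was at 26.6 and 22.4 TPM at PD14, against 33.6 and 34.8 TPM at PD2, without overlap (-0.47 ± 0.16, adjusted p = 0.122). Eif2ak3, which encodes PERK, had positive values in both methods (0.18 and 0.42, fitted 0.30 ± 0.14, adjusted p = 0.218; 8.05% of its exon bases overlap an annotated but unverified transcript on the opposite strand), and so had Ern1, which encodes IRE1 (0.26 and 0.11, fitted 0.18 ± 0.18, adjusted p = 0.512). Xbp1, the transcription factor gene spliced by IRE1, was at 119, 90.7 and 92.3 TPM and at 151, 135 and 146 TPM (PD14 against PD2 -0.20 ± 0.13, adjusted p = 0.339). Values per gene do not separate spliced from unspliced Xbp1. The 5 regulators together summed to 427 and 639 TPM at PD14 and to 612 and 863 TPM at PD2. Most of each sum was Atf4 (246 and 421 TPM at PD14, 405 and 638 TPM at PD2), so the sums do not describe the sensors as a group.

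Promoters of 29 of the 33 genes were in the RefSeq-based table of GRCm38.p6, the assembly that mm10 stands for. Manf, Derl1, Atf6 and Hyou1 had none. Each window ran from 250 bases before to 50 bases after the RefSeq-based start and was searched on both strands, with no matches overlapping. The C/EBP-ATF response element, searched as TGATGNAA, is the kind of site that ATF4 binds. It was found in 3 of the 4 PERK and ATF4 targets, Asns, Chac1 and Trib3, and otherwise in Herpud1 among the members, that is in 4 of 29 genes (13.8%) against 3.97% of all 32851 windows. Listed genes are counted by gene and the background by window, here and below. The 32851 windows belong to 27025 genes, so the shares are not of the same unit. These matches are shown because 2 of the 3 members that fell hold one, so the display was chosen from the calls. Asns, Chac1 and Trib3 had been listed as PERK and ATF4 targets, so a match in them is not independent support. Whether the element had a part in the fall was not tested. Capitals mark the fixed letters of the motif, and each line reads 5′ to 3′ on the strand that carries it.
Asns, chr6:7693213-7693244, minus strand: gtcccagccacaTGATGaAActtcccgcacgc
Trib3, chr2:152344027-152344058, plus strand: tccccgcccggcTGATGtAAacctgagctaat
Chac1, chr2:119351037-119351068, minus strand: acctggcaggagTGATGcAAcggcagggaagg
Herpud1, chr8:94386305-94386336, minus strand: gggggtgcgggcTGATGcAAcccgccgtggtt
Relative to the RefSeq-based start, the match in Asns lies 23 to 16 bases and that in Chac1 193 to 186 bases before it. That in Herpud1 lies 112 to 105 bases before it and that in Trib3 14 to 21 bases after it. The gene positions given above are from GENCODE, whose starts differ. By those positions the sides are reversed for the 2 called genes. The match of Asns then lies inside the gene and that of Trib3 before it. The whole windows of the 2 called genes, on the gene's strand, are as follows, and in Trib3 the motif then reads as its reverse complement.
Asns, chr6:7693160-7693459, minus strand: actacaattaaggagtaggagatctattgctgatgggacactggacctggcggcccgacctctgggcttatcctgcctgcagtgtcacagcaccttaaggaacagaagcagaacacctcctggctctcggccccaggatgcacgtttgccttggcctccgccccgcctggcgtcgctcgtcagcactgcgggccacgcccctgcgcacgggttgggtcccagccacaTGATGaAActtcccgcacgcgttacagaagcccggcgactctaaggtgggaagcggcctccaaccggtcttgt
Trib3, chr2:152344011-152344310, minus strand: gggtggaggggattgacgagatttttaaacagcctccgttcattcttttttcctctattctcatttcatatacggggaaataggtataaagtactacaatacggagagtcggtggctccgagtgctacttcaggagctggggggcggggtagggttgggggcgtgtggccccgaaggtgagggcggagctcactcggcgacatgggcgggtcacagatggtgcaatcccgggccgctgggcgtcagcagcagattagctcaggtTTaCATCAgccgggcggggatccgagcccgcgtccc
A match describes these letters only. Binding was not measured here.

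Of the 2 translocon genes 1 fell between PD14 and PD2 (50%, against 4.77% of all genes called lower). Serp1, a small membrane protein of the translocon that is induced by ER stress (chromosome 3, 58519817 to 58525892, minus strand), was at 136, 107 and 86.1 TPM with rRNA depletion and at 173, 116 and 99.2 TPM with poly(A) enrichment (PD2, PD8, PD14). It was lowest at PD14 in both methods, its groups at PD14 and PD2 did not overlap, and it fell by 0.73 ± 0.12 (limma adjusted p = 0.0314). Of its exon bases 72 (1.56%) overlap Eif2a on the opposite strand. Sec61b, a subunit of the Sec61 channel, was at 269, 218 and 177 TPM and at 369, 309 and 294 TPM. The PD14 poly(A) library of Sec61b lay above the PD2 rRNA-depleted library, and the change of -0.47 ± 0.13 did not pass (adjusted p = 0.0779).

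None of the 9 chaperones and co-chaperones passed in limma between PD14 and PD2, and their median change was -0.01. Dnajb9 alone had an unadjusted p under 0.05 (11.1%, against 32.0% of all genes tested). Hspa5, which encodes BiP, the ATP-driven chaperone that also holds the sensors inactive, was at 471, 439 and 675 TPM with rRNA depletion and at 756, 604 and 592 TPM with poly(A) enrichment (PD2, PD8, PD14). PD14 was the highest of the rRNA-depleted libraries and the lowest of the poly(A) libraries, by 0.52 and -0.35 against PD2, and the fitted value was 0.08 ± 0.23 (adjusted p = 0.834). Hsp90b1 was at 957 and 1141 TPM at PD14 and at 1264 and 1358 TPM at PD2. These groups did not overlap, but the change of -0.33 ± 0.17 did not pass (adjusted p = 0.245). Of its exon bases 10.3% overlap a pseudogene on the opposite strand, and the sources used here do not say whether reads were assigned by strand, so its values are uncertain. Hyou1, a large chaperone that exchanges the nucleotide of BiP, was at 87.2 and 86.1 TPM at PD14, against 122 and 93.3 TPM at PD2 (-0.30 ± 0.16, adjusted p = 0.253).

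Among the J-domain partners of BiP, Dnajb9 had the largest positive value of all members. It was at 60.5, 62.6 and 72.9 TPM with rRNA depletion and at 42.0, 53.1 and 66.9 TPM with poly(A) enrichment (PD2, PD8, PD14). Dnajb9 was highest at PD14 in both methods, and the change of 0.46 ± 0.15 did not pass (adjusted p = 0.104). Dnajb11 and Dnajc3 were at 0.12 ± 0.18 and 0.14 ± 0.12 (adjusted p = 0.671 and 0.482). Sdf2l1, which works with Dnajb11, was at 14.2 and 28.8 TPM at PD14 and at 19.6 and 23.4 TPM at PD2, with opposite signs in the methods. The secreted stress proteins Manf and Creld2 were at -0.07 ± 0.24 and -0.01 ± 0.14 (adjusted p = 0.863 and 0.974). Manf gave 0.33 with rRNA depletion and -0.47 with poly(A) enrichment, and 4.71% and 4.14% of its exon bases overlap 4930524O07Rik and Dcaf1 on the opposite strand.

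A different promoter element of this response was found mainly in chaperone genes. The ER stress response element, searched as CCAAT and CCACG with 9 bases between, is bound by ATF6 with NF-Y. It was found in 9 of the 29 genes (31.0%), against 39 of 32851 windows (0.119%): Hspa5, Hsp90b1, Dnajc3, Creld2, Calr, Canx, Pdia6, Syvn1 and Derl3. Its shorter form, ATTGG and CCACG with 1 base between, was found in Dnajb11 and Herpud1 (6.90% of members, 0.0365% of all windows). The XBP1-type element TGACGTGG was found in 0 of 29 members and in 0.676% of all windows. None of the 11 genes with either form of the ER stress response element passed between PD14 and PD2, against 11.2% of all genes tested. Derl3 among them was not tested. For so few genes 0 calls is near that share, so it is not a difference from other genes. The matches are shown beside those of the ATF4 targets, of which 0 of 4 held either form. Capitals mark the fixed letters, and each line reads on the strand that carries the motif.
Hspa5, chr2:34772013-34772055, plus strand: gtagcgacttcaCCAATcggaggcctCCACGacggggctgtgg
Hsp90b1, 212 to 194 bases before the start, chr10:86705626-86705668, minus strand: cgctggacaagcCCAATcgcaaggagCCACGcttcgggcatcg
Hsp90b1, 107 to 89 bases before the start, chr10:86705521-86705563, plus strand: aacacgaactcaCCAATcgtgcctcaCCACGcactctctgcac
Calr, chr8:84847063-84847105, plus strand: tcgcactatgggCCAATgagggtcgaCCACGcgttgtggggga
Canx, chr11:50325788-50325830, minus strand: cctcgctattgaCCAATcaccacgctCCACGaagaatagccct
Pdia6, chr12:17266479-17266521, plus strand: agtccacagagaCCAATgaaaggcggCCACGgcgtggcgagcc
Dnajc3, chr14:118937815-118937857, plus strand: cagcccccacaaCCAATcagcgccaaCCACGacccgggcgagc
Creld2, chr15:88819508-88819550, minus strand: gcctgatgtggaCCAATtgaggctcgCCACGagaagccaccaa
Syvn1, chr19:6046520-6046562, plus strand: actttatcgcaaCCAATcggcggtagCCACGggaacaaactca
Derl3, chr10:75893230-75893272, minus strand: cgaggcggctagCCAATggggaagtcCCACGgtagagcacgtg
Dnajb11, shorter form, chr16:22857840-22857874, plus strand: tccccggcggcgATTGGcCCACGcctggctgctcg
Herpud1, shorter form, chr8:94386365-94386399, plus strand: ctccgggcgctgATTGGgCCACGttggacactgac
In Hspa5 the match lies 65 to 47 bases before the RefSeq-based start, but inside the gene by the GENCODE start at 34771970. Herpud1 held both a C/EBP-ATF element and the shorter ER stress element.

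Calnexin and calreticulin hold glycoproteins in the folding cycle. Canx was at 558 and 530 TPM at PD14, against 795 and 703 TPM at PD2 (rRNA depletion, then poly(A) enrichment). Its groups did not overlap and both methods gave a similar value (-0.51 and -0.41), but it did not pass (-0.46 ± 0.14, adjusted p = 0.0978). Calr was at 1199 and 1705 TPM at PD14 and at 1472 and 1687 TPM at PD2 (-0.14 ± 0.17, adjusted p = 0.607). The disulfide isomerases form and rearrange disulfide bonds, and P4hb is also a subunit of the collagen prolyl hydroxylase. None of the 4 passed in limma and 0 had an unadjusted p under 0.05 (against 32.0% of all genes tested). Pdia6 was at 0.785 and 0.780 times its PD2 level in the library methods (-0.35 ± 0.15, adjusted p = 0.173), and 1.34% of its exon bases overlap Atp6v1c2. Pdia3, P4hb and Pdia4 were at -0.12 ± 0.17, -0.06 ± 0.15 and 0.14 ± 0.18, each with opposite signs in the methods.

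None of the 6 tested genes of ER-associated degradation passed in limma between PD14 and PD2. Of them 0 had an unadjusted p under 0.05 (against 32.0% of all genes tested). Sel1l, the adaptor of the membrane ubiquitin ligase, was at 83.0, 95.3 and 115 TPM with rRNA depletion and at 76.2, 98.2 and 90.1 TPM with poly(A) enrichment (PD2, PD8, PD14). Both PD14 libraries lay above both PD2 libraries, and the change of 0.35 ± 0.14 did not pass (adjusted p = 0.160). Syvn1, the ligase itself, was at 44.2 and 62.5 TPM at PD14 and at 44.8 and 39.3 TPM at PD2, with -0.02 under rRNA depletion and 0.65 under poly(A) enrichment (0.32 ± 0.21, adjusted p = 0.340). Derl2, a channel component, had opposite signs in the methods (-0.16 with rRNA depletion and 0.72 with poly(A) enrichment, fitted 0.28 ± 0.24, adjusted p = 0.459). Derl1, the mannosidase-like lectin gene Edem1 and the membrane stress protein gene Herpud1 were at -0.01, -0.10 and -0.06 (adjusted p = 0.957, 0.674 and 0.835). The 7 genes, Derl3 included, summed to 435 and 507 TPM at PD14 and to 426 and 446 TPM at PD2.

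The separate passage steps were compared next. Between PD8 and PD2, 0 of 32 members passed in limma and 3 had an unadjusted p under 0.05 (Atf4, Trib3 and Serp1; 9.38%, against 20.3% of all genes tested), while 3 of all genes (0.0225%) passed. Between PD14 and PD8, 0 members passed and Asns alone had an unadjusted p under 0.05 (3.12% of members). There 0 genes (0%) of all tested passed and 746 (5.6%) had an unadjusted p under 0.05. The test of whether the late step differed from the early step called 0 members and 0 genes (0%). In it 0 members and 566 genes (4.25%) had an unadjusted p under 0.05. An F test across all 3 groups called 0 members, with 6 at an unadjusted p under 0.05 (18.8%, against 24.2% of all genes tested), and 1.46% of all genes. Serp1 was at -0.46 ± 0.12 in the early and -0.26 ± 0.12 in the late step (adjusted p = 0.141 and 0.892). Asns was at -0.39 ± 0.16 and -0.47 ± 0.16, and Trib3 at -0.57 ± 0.20 and -0.46 ± 0.20. Both steps share the PD8 libraries, so their values are not independent.

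**Figure D3:**
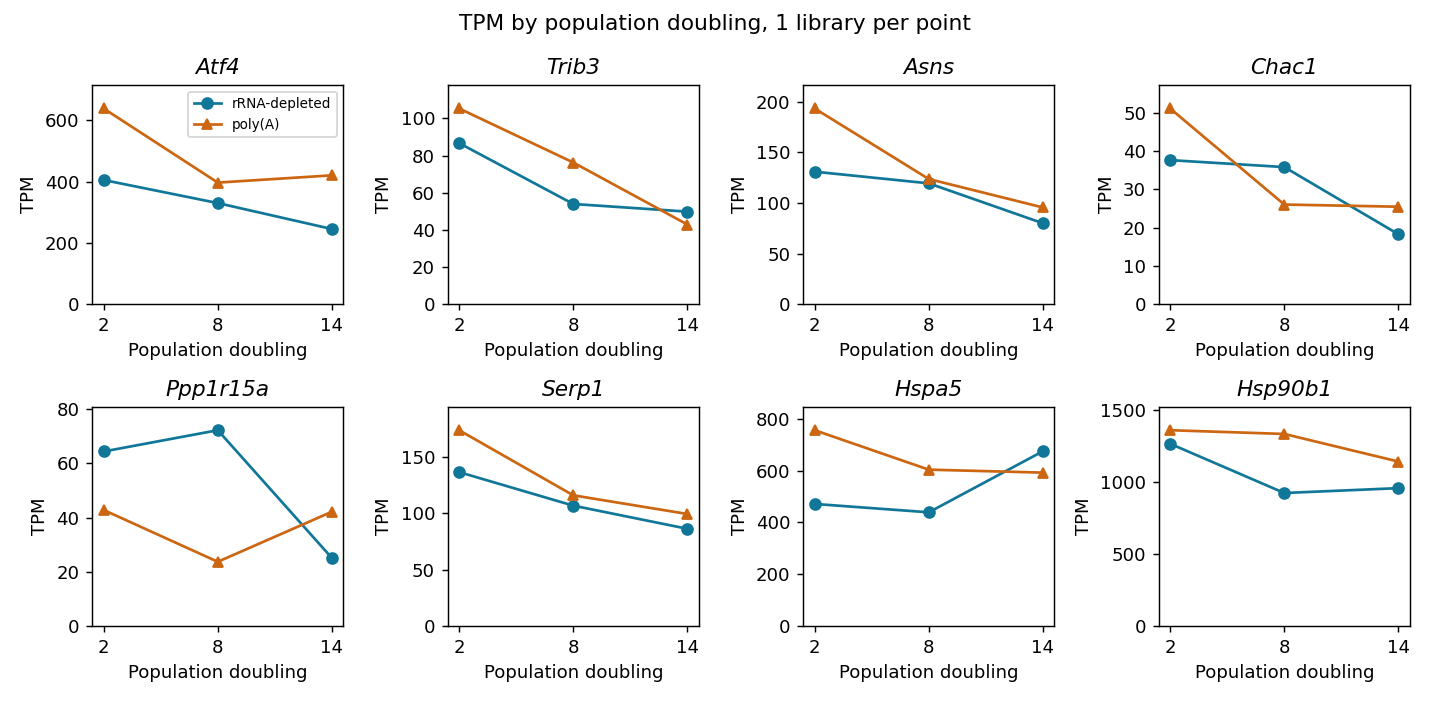
TPM of 8 members by population doubling, with 1 library per point, on axes that start at 0. Trib3, Asns and Serp1 are lowest at PD14 in both library methods, while the lines of Ppp1r15a and Hspa5 cross.

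The wider ATF4 programme was read from a list of 32 other genes of the integrated stress response, taken for their known regulation by ATF4 or CHOP. The list was chosen with earlier results of these data known, so its share of calls is not independent support. Between PD14 and PD2, 15 of the 32 fell and 0 rose in limma (46.9%, against 4.77% of all genes called lower), with a median of -0.72 beside 0.06 for all genes tested and 28 of 32 values negative. Each method alone gave a median of this size (-0.69 with rRNA depletion, -0.74 with poly(A) enrichment). Fgf21, a stress-induced hormone, was at 0.426 and 0.159 TPM at PD14, against 6.98 and 8.02 TPM at PD2 (-2.72 ± 0.27, limma adjusted p = 0.0166). It was below 1 TPM at PD8 as well (0.943 and 0.719 TPM). Fgf21 thus passed the filter only through PD2, where it was high, and its fall adds no separate support. Psat1, of serine synthesis, was at 69.6 and 91.2 TPM at PD14 and at 201 and 266 TPM at PD2 (-1.52 ± 0.13, adjusted p = 0.0166). Shmt2, the mitochondrial enzyme that takes a carbon unit from serine, fell by 1.31 ± 0.14 (adjusted p = 0.0181), and Aldh1l2, a mitochondrial folate enzyme of which 14.1% of exon bases overlap another gene, by 1.33 ± 0.20 (adjusted p = 0.0277). The amino acid transporter gene Slc7a5 fell by 1.29 ± 0.21 (adjusted p = 0.0313) and Stc2, a secreted glycoprotein, by 1.60 ± 0.34 (adjusted p = 0.0460). The stress transcription factor gene Ddit3, which encodes CHOP, was at -0.18 and Atf3 at -1.98, and neither passed (adjusted p = 0.451 and 0.0976; both named after their values were seen). The C/EBP-ATF element was in the windows of 8 of the 27 genes of this list with a promoter (29.6%, against 3.97% of all windows). These were Aars, Atf3, Fgf21, Gars, Nupr1, Pck2, Slc7a11 and Vldlr. Of the genes named here as falling, Fgf21 alone is among them. With each library left out or a setting changed, the median of the list stayed between -0.80 and -0.67, and the number that fell between 0 and 15.

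Of 31 tested oxidoreductases and folding enzymes outside the 33 genes, 7 rose and 0 fell between PD14 and PD2 (22.6%, against 6.41% of all genes called higher), with a median of 0.26. This list and the collagen list below were also chosen with earlier results of these data known. Sil1, the other nucleotide exchanger of BiP, was at 68.1 and 71.0 TPM at PD14 and at 33.7 and 25.99 TPM at PD2 (1.20 ± 0.18, adjusted p = 0.0268). The prolyl isomerase genes Fkbp7, Fkbp9 and Fkbp11 rose by 1.11 ± 0.18, 0.81 ± 0.14 and 0.70 ± 0.12, Sdf2, a relative of Sdf2l1, by 0.74 ± 0.12, and Cdnf, a relative of Manf, by 1.20 ± 0.24. Sdf2 shares 16.0% of its exon bases with Supt6 and Plod3, below, 11.7% with Znhit1. Of 17 genes of collagen folding and hydroxylation 6 rose and 1 fell (41.2% called, against 11.2% of all genes tested). Their median of 0.44 differed between methods (0.19 with rRNA depletion, 0.70 with poly(A) enrichment). Crtap, part of the collagen prolyl 3-hydroxylation complex, was at 346 and 424 TPM at PD14 and at 143 and 174 TPM at PD2 (1.27 ± 0.12, adjusted p = 0.0166). The hydroxylase genes P4ha3, P3h3, P4ha2 and Plod3 rose by 1.136 ± 0.15, 1.02 ± 0.17, 0.99 ± 0.19 and 0.59 ± 0.12, and Fkbp14 by 0.76 ± 0.12, while Fkbp10 fell by 0.54 ± 0.11 (adjusted p = 0.0456; named after its value was seen). Serpinh1, the collagen chaperone HSP47, had opposite values in the methods, 0.36 with rRNA depletion and -0.36 with poly(A) enrichment, and a fitted change of 0.00 ± 0.40 (adjusted p = 0.998; likewise named afterwards). The adjusted p of the other named genes that rose lay between 0.0229 and 0.0443, and over all alternatives 0 to 7 and 0 to 9 genes of these 2 lists rose.

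The remaining lists had few calls. Of 18 genes listed under glycosylation and the calnexin cycle 0 passed in limma, and their median was 0.08. An unadjusted p under 0.05 was found for 7 (38.9%, against 32.0% of all genes tested). Sdf4, which is in the list but is not a glycosylation enzyme, was at 0.81 ± 0.18. The oligosaccharyltransferase gene Rpn2 was at 0.54 ± 0.13 (limma adjusted p = 0.0510 and 0.0580). Of 24 genes of translocation and signal peptide removal only Srp14, of the signal recognition particle, rose (4.17%, against 6.41% of all genes called higher). Its change was 0.73 ± 0.15 (limma adjusted p = 0.0431), and the median of the list was -0.14. The groups of Srp14 overlapped across methods, as its PD14 rRNA-depleted library (149 TPM) lay below its PD2 poly(A) library (166 TPM). Of 29 other genes of ER-associated degradation only Erlec1, a lectin, rose (3.45%, against 6.41%). Its change was 0.71 ± 0.14 (limma adjusted p = 0.0428), and the median of the list was 0.02. Of 19 other sensors and regulators, Eif2s1, which encodes eIF2alpha itself, was at 55.3 and 76.2 TPM at PD14 and at 97.4 and 122 TPM at PD2, and fell by 0.74 ± 0.12 (adjusted p = 0.0295). Mbtps1, the protease that makes the first cut in ATF6, rose by 0.53 ± 0.12 (limma adjusted p = 0.0497) and passed in 1 of 13 other settings. The median of that list was 0.18, and its 2 calls were 10.5%, against 11.2% of all genes tested.

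**Figure D4:**
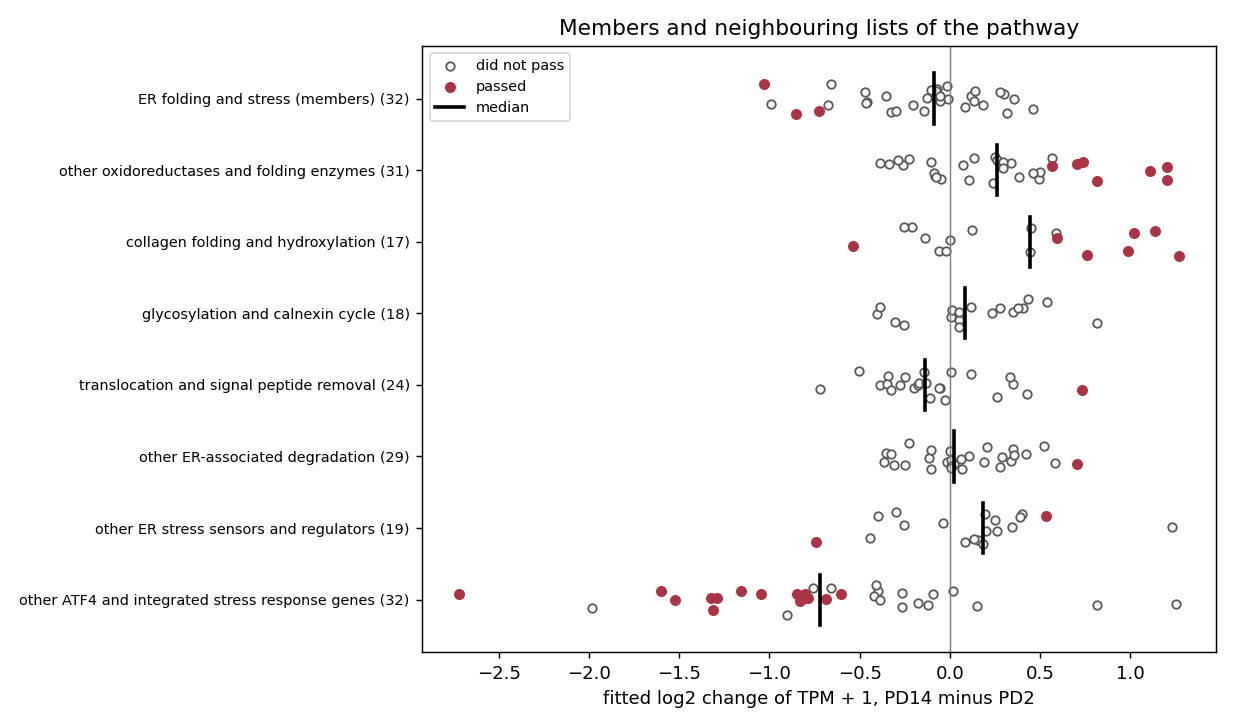
Fitted log2 change of TPM + 1, PD14 minus PD2, for the 32 tested members and 7 other lists of the pathway, with the number of tested genes in brackets. Each point is a gene, filled points passed at an adjusted p under 0.05, and bars are medians. The ATF4 and integrated stress response list lies mostly below 0 and the collagen folding list mostly above.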

How the data were processed

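The authors deposited one table of TPM per gene symbol. Per the submitters' processing notes, the tools were HISAT2 2.0.5, StringTie 1.3.1c, cutadapt 1.14 and bcl2fastq and the build was mm10; the gene annotation is not given in the sources used here. The deposited TPM sum to 1000000 in the poly(A) libraries and to 937217 to 950531 in the rRNA-depleted ones, so part of each rRNA-depleted library lies outside the genes used here.

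TPM were analysed as log2(TPM + 1) with limma 3.58.1 in R 4.3.3, which understates changes of low genes. The 13332 genes that reached 1 TPM in 2 or more libraries were tested, with a term per group, a mean-variance trend and replicate number as a block. The labels tie replicate number to library method. Differences between the 2 methods correlated between groups at r = 0.664 to 0.854 across genes, so the libraries were treated as paired by method. The fit left 2 residual degrees of freedom, plus 3.22 from the prior. P-values are two-sided, adjusted by Benjamini-Hochberg over all genes tested, with a threshold of 0.05, and the fit was tested on simulated data. All 33 members are named. Of each other list, up to 6 genes that passed, largest first, or else the 2 largest values, are named. The members and lists were chosen with earlier results of these data known. Gene positions and overlaps are from GENCODE M21. Other settings tried were no block, a pseudocount of 0.1, no filter or one of 5 TPM, quantile normalization, rescaling without mitochondrial genes, no trend, and leaving out each library. A planned look at protein sequences was not made. A marker gene is not reported here.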

Additional observations from a re-analysis of the deposited data

How the results depend on the processing

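Between PD14 and PD2, 1490 genes and 3 members passed. Without the replicate block these counts were 0 and 0, without the filter on low TPM 404 and 0, and without the mean-variance trend 938 and 0. With each library left out they were 0 to 1793 and 0 to 3. The 3 members kept their sign in all 13 alternatives and passed in 5. The adjusted p of Asns, Trib3 and Serp1 was 0.345, 0.300 and 0.345 without the block, and 0.0121 to 0.131, 0.0352 to 0.117 and 0.0241 to 0.118 with a library left out. Leaving out a PD8 library keeps the fitted difference between PD14 and PD2 and removes a residual degree of freedom; an arm left with 1 library is assumed to vary like the others. Between PD8 and PD2, 3 genes passed, against 21 with a pseudocount of 0.1, 0 without the block, filter or trend or with quantile normalization, and 0 to 626 with a library left out. Between PD14 and PD8 the range was 0 to 1 gene, and for any change 0 to 1 member. The median change of the members with a library left out was -0.30 to -0.019 between PD14 and PD2, -0.19 to -0.0025 between PD8 and PD2 and -0.095 to 0.035 between PD14 and PD8, where quantile normalization gave -0.038. The cause was not tested.

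Of 60 genes named with a fitted change between PD14 and PD2, 16 changed sign in some alternative, and none of them had passed. They did so when a library was left out, and Serpinh1 also when rescaled without mitochondrial genes (-0.032). With a library left out their log2 change ranged from -0.30 to 0.46 for Hspa5, -0.31 to 0.028 for Calr, -0.32 to 0.068 for Pdia3, -0.11 to 0.40 for Pdia4, -0.18 to 0.070 for P4hb, -0.15 to 0.39 for Dnajb11, -0.45 to 0.30 for Sdf2l1, -0.17 to 0.15 for Creld2, -0.49 to 0.35 for Manf, -0.26 to 0.15 for Herpud1, -0.0084 to 0.64 for Syvn1, -0.29 to 0.087 for Edem1, -0.18 to 0.15 for Derl1, -0.11 to 0.67 for Derl2, -1.57 to 0.23 for Ppp1r15a and -0.61 to 0.62 for Serpinh1. All 26 named genes that passed lost the threshold in at least 1 alternative, without a change of sign. Depth is unknown, so what it limits could not be given.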

Other observations

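Among the members, the difference between library methods was lowest for Sdf2l1 and highest for Ppp1r15a. Averaged over the 3 groups, Sdf2l1 was lower in the rRNA-depleted than in the poly(A) libraries by -0.75 on the log2(TPM + 1) scale, and Ppp1r15a was higher there by 0.47. The difference of Ppp1r15a was not steady. With rRNA depletion it was higher at PD2 and PD8 but lower at PD14 (25.1 against 42.2 TPM with poly(A) enrichment).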
